A study of Homo sapiens with 4 samples.

Results

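Death receptors are cell surface proteins of the TNF receptor superfamily, and 10 genes of this system were followed in RPE-1 cells exposed to merbarone. They are the TRAIL death receptors TNFRSF10A and TNFRSF10B, the TRAIL decoy receptors TNFRSF10C and TNFRSF10D, the death receptors FAS, TNFRSF1A and TNFRSF21, the receptor TNFRSF12A, the inhibitor CFLAR and the ligand TNFSF10. The genes were chosen by name, with earlier results of these data known. Each of the 10 was found once among the 23459 genes listed in the count files by NCBI Gene identifier. hTERT RPE-1 is a wild type human cell line from the retinal pigment epithelium, immortalized with telomerase. All libraries came from cells that had spent 48 h in medium with 0.1% serum, which arrests them in G0/G1, and were then given 200 μM merbarone, a catalytic inhibitor of type II topoisomerases. There were 2 libraries at 4 h and 2 at 8 h. The labels call them replicates of one cell line, so p-values measure the spread between these cultures. Untreated cells were not analysed here, and time with merbarone cannot be told apart from time in low serum.

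A death receptor carries an intracellular death domain. When ligand binds FAS or a TRAIL death receptor, the domain recruits the adaptor FADD and caspase-8, and apoptosis can follow. TRAIL, the product of TNFSF10, binds 2 receptors with a working death domain and 2 decoys that lack one. CFLAR encodes c-FLIP, which competes with caspase-8 at the receptor. TNFRSF10B and FAS are well-known targets of p53, the transcription factor that responds to DNA damage.

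Counts per library ranged from 8064450 to 10324697. Replicates differed beyond the sampling of reads, which gives about 1 for the chi-square statistic over genes per degree of freedom: the statistic was 2.67 at 4 h and 3.84 at 8 h. Of 11 markers of retinal pigment epithelium, TYR had 0 counts and RPE65, RLBP1, BEST1 and TTR had between 0 and 7 in each library, so these defining markers were absent or nearly so, while KRT8, KRT18, MITF and OTX2 were detected. The summed level of this list was 817 and 871 CPM at 4 h and 689 and 721 CPM at 8 h. The 5 haematopoietic markers together stayed at or below 1.45 CPM in every library, and the 4 endothelial markers had 8.23 and 7.17 CPM at 4 h, then 4.45 and 4.22 CPM at 8 h, mostly from KDR (log2 fold change −0.88, edgeR adjusted p = 0.0083). The first sum is mostly KRT8 and KRT18. KRT18 fell (log2 fold change −0.51, edgeR adjusted p = 3.72e-05), whereas the log2 fold changes of the other 5 tested markers were between 0.03 and 0.62 and did not pass. The part of KRT18 and KDR in the values below was not tested.

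TNFRSF10A, TNFRSF10B, TNFRSF10D and FAS rose between 4 h and 8 h, whereas TRAIL itself was hardly detected. A gene was tested if its CPM was above 1 in at least 2 libraries, and 8 of the 10 members passed, all of them in the libraries of both times. TNFRSF10C and TNFSF10 did not. Of the 8 members tested, 6 were higher at 8 h and 0 were lower at an adjusted p below 0.05 in edgeR's quasi-likelihood test. Over all 12559 genes tested, 19.9% were higher and 18.8% lower by the same rule. Only TNFRSF10A also had a log2 fold change above 1, a step that 1.45% of all tested genes passed in this direction, against 3.88% in the other and 5.33% in either. With TMM, both 8 h libraries lay above both 4 h libraries for all 8 tested members, where this held for 34.8% of all genes. Scaled by library size alone, the times overlapped for TNFRSF12A. The median log2 fold change of the 8 was 0.57, against −0.0024 over all genes. The members were chosen with earlier results known, so these comparisons describe them and do not test them as a set. Scaled by library size alone, the median of all genes moved to −0.11, and 1698 genes were higher and 3289 lower, against 2500 and 2367 with TMM. Of the members, 5 were higher and 0 lower on that scale. In bulk RNA, more RNA per cell and more cells that hold it cannot be told apart.

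**Figure D1:**
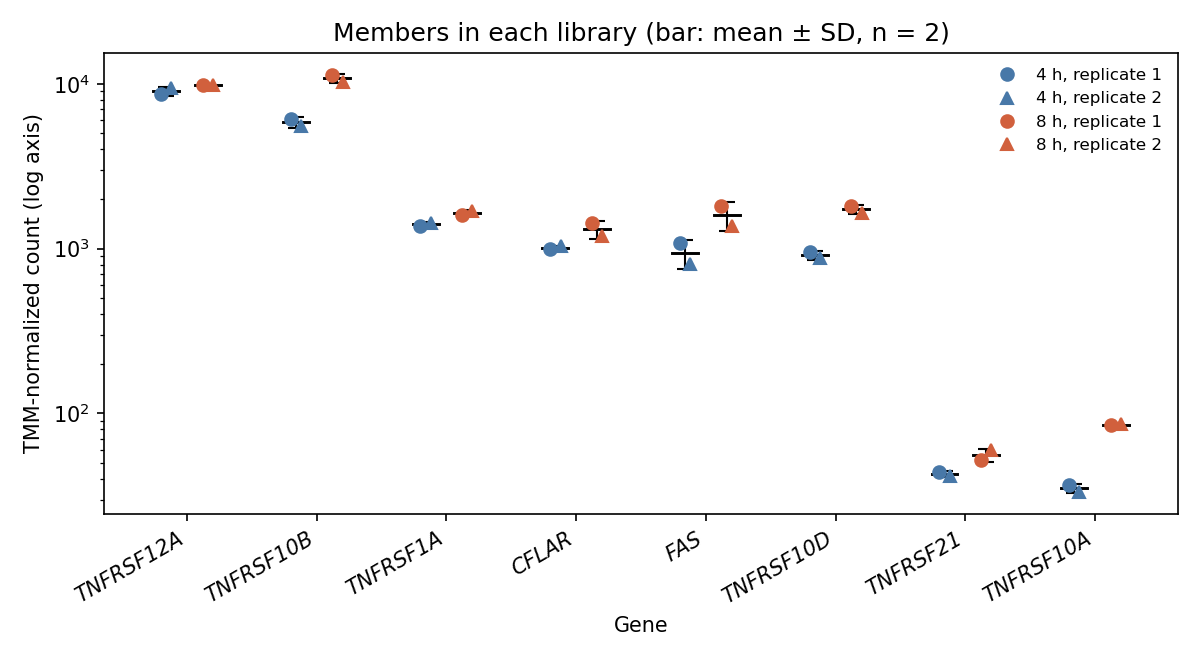
TMM-normalized counts (log axis) of the 8 tested members in each of the 4 libraries, with 4 h in blue, 8 h in orange, circles for replicate 1 and triangles for replicate 2. Black bars are means with SD (n = 2), and for every gene both 8 h points lie above both 4 h points, from the gap of TNFRSF10A (34 and 37 against 85 and 86) to the narrow one of TNFRSF12A.

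TNFRSF10B (chromosome 8, 22877646 to 22926544, minus strand, GRCh37), which encodes the death receptor DR5, was the TRAIL receptor with the most reads. Its TMM-normalized count, the count scaled to a common effective library size, was 6156 and 5522 in the 4 h libraries, then 11278 and 10304 in the 8 h libraries. The lower 8 h library thus exceeded the higher 4 h library by far more than the replicates differed. The log2 fold change was 0.89 (standard error 0.07, edgeR adjusted p = 3.44e-08), a 1.85-fold rise, and 2.49% of all tested genes had a higher log2 fold change. The last exon of TNFRSF10B overlaps RHOBTB2 on the opposite strand. RHOBTB2 had 349 and 357 normalized counts at 8 h and 376 and 471 at 4 h, so its whole signal was far below that of TNFRSF10B.

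TNFRSF10A (chromosome 8, 23047965 to 23082615, minus strand), which encodes the other TRAIL death receptor, DR4, was rare but rose the most. It rested on 41 and 37 reads at 4 h and on 83 and 69 at 8 h. As normalized counts these were 36.8 and 33.5 at 4 h, then 84.9 and 85.7 at 8 h, and the replicates of each time were close. The log2 fold change was 1.27 (standard error 0.23, edgeR adjusted p = 0.000255), or 2.42-fold, and 0.748% of all tested genes ranked above it. Exons of TNFRSF10A-DT overlap it on the opposite strand. That gene had between 22.4 and 29.0 normalized counts in the 4 libraries, with a log2 fold change of −0.09 (edgeR adjusted p = 0.857).

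The decoys split into one that was abundant and one that was nearly silent. TNFRSF10D (chromosome 8, 22993101 to 23021540, minus strand) encodes DcR2, a receptor with a shortened death domain. It had 956 and 874 normalized counts at 4 h, then 1814 and 1651 at 8 h, with no overlap between the times. Its log2 fold change was 0.92 (standard error 0.09, edgeR adjusted p = 1.19e-07), a 1.90-fold rise, which 2.19% of tested genes exceeded. TNFRSF10C (chromosome 8, 22960434 to 22974958, plus strand) encodes DcR1, a decoy anchored to the membrane by a lipid. It had 2 and 4 reads at 4 h, then 0 and 1 at 8 h. A count of 0 allows up to 3 reads, so no fold change is given for TNFRSF10C.

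Set side by side per length, the composition of the TRAIL receptors changed little while their sum rose. Levels of different genes were compared as RPKM, the reads per kilobase of all annotated exons at a common effective library size. The summed level of the 4 receptors was 158 and 142 RPKM at 4 h, then 291 and 266 RPKM at 8 h. TNFRSF10B made up 81.2% and 80.9% of this sum at 4 h and 80.6% and 80.5% at 8 h. Both decoys together held 17.9% and 18.3% at 4 h, then 18.4% and 18.3% at 8 h. The decoy share averaged 18.1% ± 0.25 in the 4 h libraries and 18.3% ± 0.04 in the 8 h libraries (SD, n = 2 each), a difference smaller than the spread of the 4 h replicates. As a share of raw reads, without lengths, the decoys took 1067 of 7968 TRAIL receptor reads in replicate 1 at 4 h (13.4%, exact 95% interval 12.7 to 14.2) and 1774 of 12884 in replicate 1 at 8 h (13.8%, 13.2 to 14.4). These intervals cover counting error only. The share of TNFRSF10A was small, at 0.83% and 0.84% of the sum at 4 h, then 1.04% and 1.15% at 8 h. With 2 libraries against 2, a two-sided exact permutation test cannot give a p below 0.33, so these shares are described without a test.

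**Figure D2:**
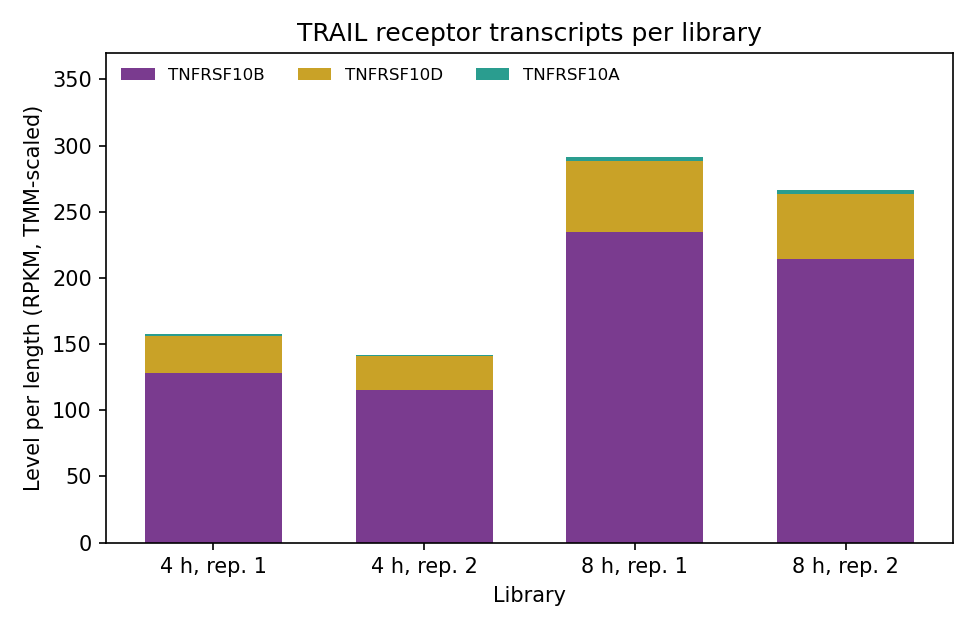
Level per length (RPKM, scaled by TMM effective library size) of TNFRSF10B, TNFRSF10D and TNFRSF10A, stacked for each of the 4 libraries. TNFRSF10C, at or below 0.24 RPKM, is not drawn. The stacks rise from 158 and 142 RPKM at 4 h to 291 and 266 RPKM at 8 h, and TNFRSF10D keeps a share close to 18% in each.

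The TRAIL receptor genes lie side by side on chromosome 8 and are similar in sequence, and reads that fit more than one place were removed by the authors. No stretch of 75 bases, the read length, in the annotated transcripts of one of the 4 genes occurred in those of another. Reads with mismatches were not examined. For TNFRSF10B, 6.11% of such windows occurred in transcripts of RHOBTB2 or of 4 genes elsewhere, with 0.12% in the same orientation. For TNFRSF10A, 9.44% of such windows occurred in the transcripts of its overlapping antisense partners. For TNFRSF10C, 23.9% occurred in transcripts of genes that overlap it on the same strand.

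FAS (chromosome 10, 90750414 to 90775542, plus strand) encodes the receptor of Fas ligand. It had 1074 and 808 normalized counts at 4 h, then 1826 and 1368 at 8 h. Replicates of FAS differed more than those of TNFRSF10A, TNFRSF10B and TNFRSF10D, yet the times did not overlap. The log2 fold change was 0.77 (standard error 0.12, edgeR adjusted p = 7.75e-05), or 1.70-fold, and 3.91% of tested genes ranked above it. FAS shares exon sequence with ACTA2, the smooth muscle actin gene on the opposite strand, and 18.5% of the 75-base windows of FAS transcripts occurred in those of ACTA2 or of an antisense RNA. ACTA2 averaged 13820 normalized counts at 4 h and 14164 at 8 h, with a log2 fold change of 0.04 (edgeR adjusted p = 0.702). The sources used here do not say whether strand was used in counting, and without strand the reads of FAS and ACTA2 cannot be told apart in the shared stretch.

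Promoter sequence was examined for the members where it can be shown here. Windows of 300 bases from RefSeq (GRCh38.p14), 250 before to 50 after each annotated start, were available for FAS, CFLAR, TNFRSF1A, TNFRSF21 and TNFSF10, and each was placed on GRCh37 by an exact match. On both strands, 3 motifs were searched, namely the p53 half-site consensus, the NF-kB consensus and TGANTCA, the AP-1 motif. Of all 35116 windows in the RefSeq table, 6.63% held the first, 5.91% the second and 7.71% the third. The windows below belong to FAS and CFLAR, the genes among these 5 that held a match. They are 3 of the 4 windows with a match, and capitals mark the matches.
FAS first start, chr10:90750305-90750604, plus strand: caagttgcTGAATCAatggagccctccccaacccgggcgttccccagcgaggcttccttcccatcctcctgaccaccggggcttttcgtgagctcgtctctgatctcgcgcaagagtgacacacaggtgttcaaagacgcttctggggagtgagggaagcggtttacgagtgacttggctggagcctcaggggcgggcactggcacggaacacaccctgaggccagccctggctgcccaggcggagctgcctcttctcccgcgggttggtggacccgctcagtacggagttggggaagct
FAS second start, chr10:90750938-90751237, plus strand: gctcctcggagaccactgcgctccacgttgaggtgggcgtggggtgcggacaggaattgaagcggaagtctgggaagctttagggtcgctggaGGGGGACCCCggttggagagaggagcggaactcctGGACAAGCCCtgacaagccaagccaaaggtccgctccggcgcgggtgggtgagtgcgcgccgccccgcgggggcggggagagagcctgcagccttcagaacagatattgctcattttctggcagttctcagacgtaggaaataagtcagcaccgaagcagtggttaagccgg
CFLAR first start, chr2:201983189-201983488, plus strand: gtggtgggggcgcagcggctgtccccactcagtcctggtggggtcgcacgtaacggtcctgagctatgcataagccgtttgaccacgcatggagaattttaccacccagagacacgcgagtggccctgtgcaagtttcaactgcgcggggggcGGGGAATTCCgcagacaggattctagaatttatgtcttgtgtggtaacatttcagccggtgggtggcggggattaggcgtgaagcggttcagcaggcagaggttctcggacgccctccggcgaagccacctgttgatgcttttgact

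In the first FAS window the match was TGAATCA, upstream of the transcript. In the second, which lies in intron 1 of the principal FAS transcript, GGGGGACCCC matched the NF-kB consensus and GGACAAGCCC the p53 half-site, at 90751066 to 90751075. The matches did not overlap each other. This was the only p53 half-site among the windows of these 5 genes. In the first of 4 CFLAR windows GGGGAATTCC matched the NF-kB consensus, in intron 1 of the canonical transcript. The third CFLAR window, not shown, held TGAATCA at 201997344 to 201997350. The other 2 windows of CFLAR and the remaining window of FAS held no match. The windows of TNFRSF1A, TNFRSF21 and TNFSF10 held none of the 3 motifs. A match is a description of the letters and says nothing of binding in these cells.

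CFLAR (chromosome 2, 201980877 to 202041410, plus strand) also rose. It had 993 and 1031 normalized counts at 4 h, then 1432 and 1199 at 8 h. The 8 h replicates lay further apart than those of 4 h but stayed above them. The log2 fold change was 0.38 (standard error 0.09, edgeR adjusted p = 0.00252), or 1.30-fold, and it was 0.25 without replicate 1 of 8 h. Without replicate 1 of 4 h the adjusted p was 0.0505. In reads, TNFRSF10B exceeded CFLAR 6.20 and 5.36 times at 4 h, then 7.88 and 8.59 times at 8 h. TNFRSF10D went from 0.96 and 0.85 reads for each read of CFLAR to 1.27 and 1.38. For FAS, the values were 1.08 and 0.78 at 4 h, then 1.28 and 1.14 at 8 h. The 8 h ratios were above the 4 h ratios for each of these 3 receptors. These ratios are not per length, so they compare the times and not the levels of the genes. Per length at 4 h, TNFRSF10B averaged 122 RPKM, FAS 27.6 RPKM and TNFRSF10D 27.0 RPKM, against 4.69 RPKM for CFLAR. The gap depends on the length used. With the length of one principal transcript, chosen after seeing the data, the values were 152, 38.3 and 27.0, against 7.22 for CFLAR. An exact permutation test of 2 against 2 cannot pass the threshold, and counts per gene do not tell the long and short forms of c-FLIP apart.

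TNFRSF1A (chromosome 12, 6437923 to 6451280, minus strand), the main receptor for TNF, changed little. It had 1378 and 1436 normalized counts at 4 h, then 1604 and 1689 at 8 h. The log2 fold change was 0.23 (standard error 0.08, edgeR adjusted p = 0.0298), or 1.17-fold. This call was lost with DESeq2 (adjusted p = 0.0793) and with scaling by library size alone, which gave a log2 fold change of 0.12 (edgeR adjusted p = 0.247). It was also lost when replicate 1 or 2 of 4 h or replicate 2 of 8 h was left out. FAS stood at 0.92 and 0.66 of the TNFRSF1A level per length at 4 h and at 1.34 and 0.96 at 8 h.

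The remaining receptors did not pass the test. TNFRSF12A (chromosome 16, 3068446 to 3072384, plus strand) encodes Fn14, the receptor of TWEAK, which has no death domain. It had 8639 and 9394 normalized counts at 4 h, then 9826 and 9792 at 8 h. Its log2 fold change was 0.12, with a 95% interval of −0.01 to 0.26 (edgeR adjusted p = 0.171). Corrected for the trend with mean expression, the log2 fold change was −0.06, so no direction is given for TNFRSF12A. TNFRSF21 (chromosome 6, 47199268 to 47277641, minus strand) encodes DR6, a death receptor best known in neurons and lymphocytes. Its normalized counts were 44 and 42 in the 4 h libraries, then 52 and 60 in the 8 h libraries, from between 46 and 51 reads per library. The log2 fold change was 0.38, with a 95% interval of −0.11 to 0.86 (edgeR adjusted p = 0.239). That interval holds no change as well as a change as large as that of CFLAR, so neither is established for TNFRSF21.

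TNFSF10 (chromosome 3, 172223298 to 172241265, minus strand), the gene of TRAIL, had 0 and 2 reads at 4 h, then 1 and 0 at 8 h. A library with 0 reads allows up to 3, which is 0.291 CPM in the deepest library and 0.372 CPM in the shallowest. Of the other ligand genes of the pathway, TNF and FASLG had 0 reads in all 4 libraries. LTA had 0 and 2 reads at 4 h, then 4 and 2 at 8 h, and was not tested. TNFSF12, the gene of TWEAK, the ligand of TNFRSF12A, was detected, with 60.1 and 66.2 normalized counts at 4 h, then 66.5 and 89.5 at 8 h. Its log2 fold change was 0.29, with a 95% interval of −0.15 to 0.73 (edgeR adjusted p = 0.321). Transcripts of TRAIL, Fas ligand and TNF were thus at or near the limit of detection at both times, while those of TWEAK were not.

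**Figure D3:**
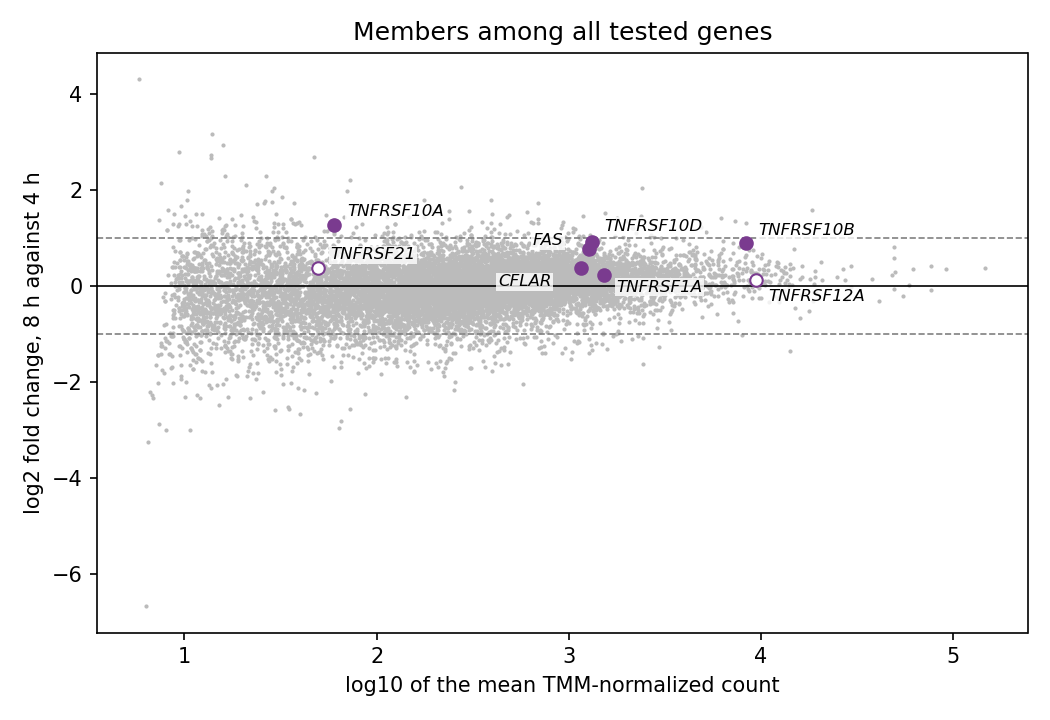
Log2 fold change of 8 h against 4 h for all 12559 tested genes (grey) by the log10 of their mean TMM-normalized count, with the 8 tested members in purple, filled where the edgeR adjusted p was below 0.05 and open otherwise. Dashed lines mark log2 fold changes of 1 and −1, and TNFRSF10A at 1.27 is the one member past them.

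Ordered by level per length, TNFRSF12A came first at both times, with 522 ± 30.9 RPKM at 4 h and 568 ± 1.4 RPKM at 8 h (SD, n = 2 each). TNFRSF10B followed with 122 ± 9.34 and 225 ± 14.3 RPKM (SD, n = 2 each). TNFRSF12A thus exceeded TNFRSF10B 3.90 and 4.73 times at 4 h, then 2.42 and 2.64 times at 8 h. TNFRSF1A, FAS and TNFRSF10D formed the next group. TNFRSF1A had 34.9 ± 1.03 RPKM at 4 h (SD, n = 2), above FAS at 27.6 ± 5.52 RPKM and TNFRSF10D at 27.0 ± 1.71 RPKM (SD, n = 2 each), and the last 2 overlapped. At 8 h, TNFRSF10D had 51.1 ± 3.40 RPKM, FAS 46.8 ± 9.48 RPKM and TNFRSF1A 40.8 ± 1.49 RPKM (SD, n = 2 each). FAS overlapped both of its neighbours, while TNFRSF10D lay above TNFRSF1A in all libraries. With the length of one principal transcript in place of all exons, TNFRSF1A was first of these 3 at both times, so their order depends on the length used. CFLAR had 4.69 ± 0.13 RPKM at 4 h and 6.10 ± 0.76 RPKM at 8 h (SD, n = 2 each). Its annotated exons cover 22478 bases, against 14612 in its canonical transcript, and 11.3% of its 75-base windows occurred in transcripts of other genes. TNFRSF10A and TNFRSF21 overlapped at 4 h, at 1.25 ± 0.08 and 1.24 ± 0.05 RPKM, but not at 8 h, at 3.04 ± 0.02 and 1.62 ± 0.15 RPKM (SD, n = 2 each).

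Other genes of the extrinsic pathway, from ligands to caspases, did not move in one direction. A list of 39 such genes had 34 that were tested, of which 9 were higher, 6 were lower and 19 did not pass, with a median log2 fold change of 0.04. Against the 19.9% and 18.8% of all genes, the 9 and 6 are not far from the background. Scaled by library size alone, 7 were higher and 7 lower, where 1698 of all 12559 genes were higher and 3289 lower. Among 8 adaptors, 0 were higher and 1 was lower. That gene, TRAF5, which links TNF receptors to NF-kB, fell from 290 and 277 normalized counts at 4 h to 137 and 104 at 8 h (log2 fold change −1.22, standard error 0.15, edgeR adjusted p = 5.22e-06). FADD, the adaptor shared by FAS and the TRAIL receptors, had a log2 fold change of −0.0023 (standard error 0.11, edgeR adjusted p = 0.989).

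CASP8, the caspase recruited by FADD, was rare, with 55 and 55 reads at 4 h, then 28 and 33 at 8 h. Its log2 fold change was −0.53 (standard error 0.27, edgeR adjusted p = 0.136). CASP10 had between 0 and 4 reads per library and was not tested. CASP6, an effector caspase, fell, from 127 and 149 to 76.7 and 70.8 normalized counts (log2 fold change −0.89, edgeR adjusted p = 0.00103). The BH3-only gene BID, which links caspase-8 to mitochondria, had a log2 fold change of 0.28 (edgeR adjusted p = 0.0554).

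Among 6 genes that restrain the pathway, 3 were higher and 1 was lower, where 19.9% and 18.8% of all genes were. PEA15, whose product binds FADD, had 11256 and 11419 normalized counts at 4 h, then 14356 and 14038 at 8 h (log2 fold change 0.32, edgeR adjusted p = 0.000606). BIRC3, a ubiquitin ligase of the TNF receptor complex, rose from 404 and 340 to 620 and 455 (log2 fold change 0.54, edgeR adjusted p = 0.00295). Its relative BIRC2, named after its values were seen, had a log2 fold change of 0.28 (edgeR adjusted p = 0.0279). TNFAIP3, which encodes the NF-kB inhibitor A20, fell from 759 and 698 to 570 and 553 (log2 fold change −0.38, edgeR adjusted p = 0.00375). Of 5 genes that attach or remove linear and K63-type ubiquitin chains at these receptors, 3 were higher and 0 lower, against the same shares of all genes. They included the deubiquitinases CYLD, with a log2 fold change of 0.58 (edgeR adjusted p = 1.29e-05), and OTULIN, with 0.53 (edgeR adjusted p = 0.00107). RBCK1 was the other, named after its values were seen, with 0.23 (edgeR adjusted p = 0.0455).

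Other genes of the list moved both ways. DEDD2, which encodes a protein with a death effector domain, had 312 and 323 normalized counts at 4 h, then 643 and 702 at 8 h. Its log2 fold change of 1.08 (standard error 0.10, edgeR adjusted p = 1.74e-07) was the largest rise in the list. DEDD, its paralog, had a log2 fold change of 0.45 (edgeR adjusted p = 0.000938), and ADAM17, the protease that sheds TNF and TNFRSF1A from the membrane, one of 0.47 (edgeR adjusted p = 0.00065). CASP8AP2, needed for histone gene expression besides its tie to caspase-8, fell with a log2 fold change of −0.63 (edgeR adjusted p = 0.000659), and FAF1, a FAS-binding protein, with −0.41 (edgeR adjusted p = 0.00462). Of the necroptosis genes, RIPK3 had 0 reads in all libraries. MLKL, the effector of necroptosis, fell from 51 and 78 reads to 23 and 11 (log2 fold change −1.61, standard error 0.33, edgeR adjusted p = 0.000743).

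**Figure D4:**
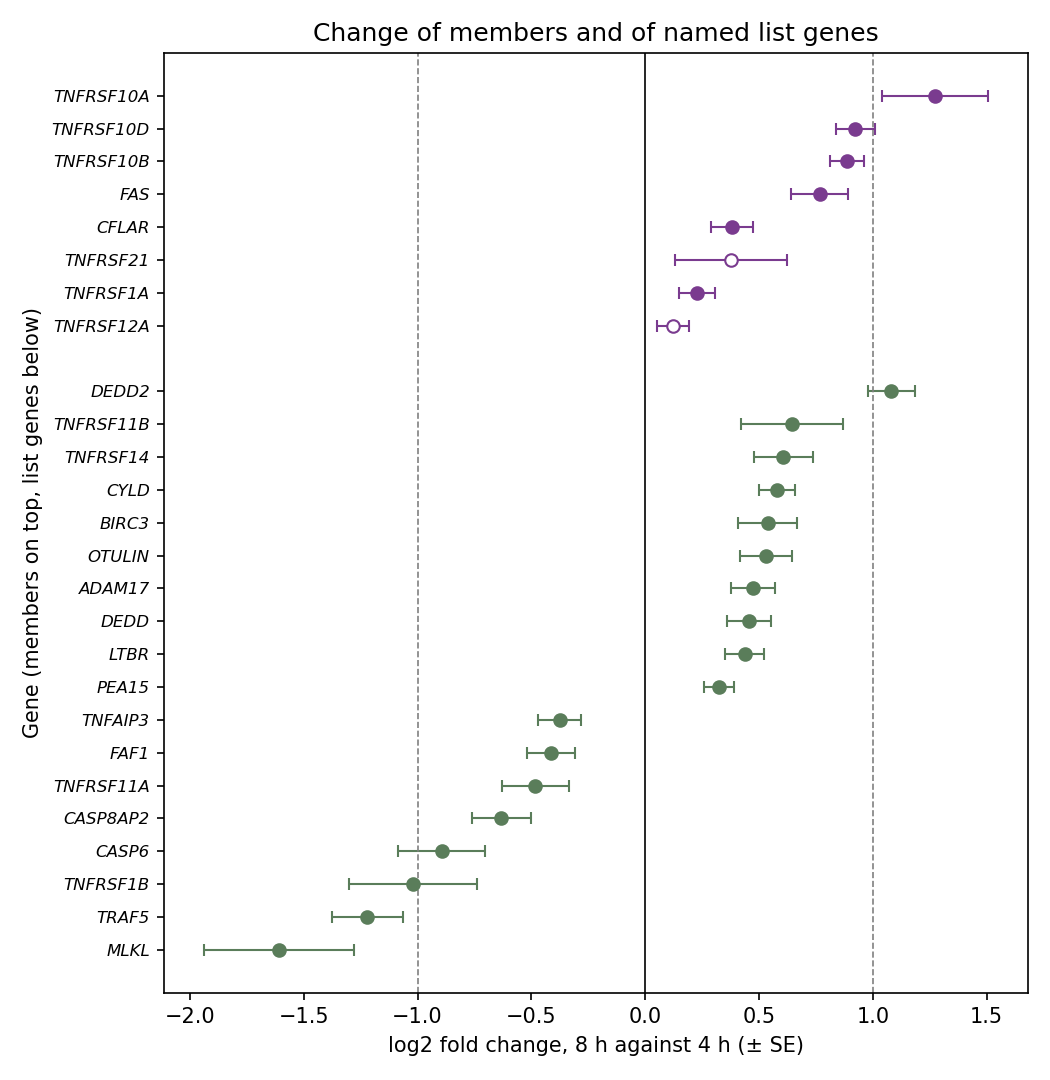
Log2 fold change of 8 h against 4 h with its standard error for the 8 tested members (purple, top) and the 18 named genes of the pathway and receptor lists (green, below), filled where the edgeR adjusted p was below 0.05. Members run from 0.12 (TNFRSF12A) to 1.27 (TNFRSF10A), and the list genes from −1.61 (MLKL) to 1.08 (DEDD2), with dashed lines at 1 and −1.

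The rest of the receptor family held genes that rose and genes that fell. Of 21 other TNF receptor superfamily genes, 7 had 0 reads in all libraries and 10 were tested, with 4 higher, 2 lower and a median log2 fold change of 0.04, where 19.9% of all genes were higher and 18.8% lower. With DESeq2, 2 were higher and 0 lower, so the calls of the genes that fell ended there, as did some calls of genes that rose. Calls in both directions were also lost without replicate 2 of 4 h. TNFRSF11B, which encodes osteoprotegerin, a soluble decoy that also binds TRAIL, rose from 51.2 and 46.2 to 78.8 and 73.3 normalized counts (log2 fold change 0.64, standard error 0.22, edgeR adjusted p = 0.0286). TNFRSF14, the receptor of LIGHT, had a log2 fold change of 0.61 (edgeR adjusted p = 0.00107) and LTBR, the lymphotoxin beta receptor, one of 0.44 (edgeR adjusted p = 0.0005). NGFR, which carries a death domain and was named after its values were seen, went from 24 and 19 reads to 43 and 32 (log2 fold change 1.11, edgeR adjusted p = 0.0081). The second TNF receptor, TNFRSF1B, fell from 55 and 64 reads to 24 and 23 (log2 fold change −1.02, standard error 0.28, edgeR adjusted p = 0.00702). TNFRSF11A, which encodes RANK, fell with a log2 fold change of −0.48 (edgeR adjusted p = 0.0139). The decoy gene TNFRSF6B had 0 reads in every library.

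Of 13 further ligand genes of the family, 6 had 0 reads throughout and 5 were tested, with 1 higher and 0 lower (19.9% and 18.8% of all genes). That gene was TNFSF13B, the gene of BAFF, which was named after its values were seen. It had 5 and 3 reads at 4 h, then 30 and 14 at 8 h, and its adjusted p in edgeR was 0.000477. Since TNFSF13B passed the filter on low counts only through the 8 h libraries, it had to differ, and its call and the count of 1 support nothing.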

How the data were processed

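Reads of polyadenylated RNA (TruSeq Stranded mRNA) were mapped by the authors to hg19 with Bowtie 1.2.0, keeping reads with a single position. They deposited raw counts per gene and library, not normalized, not filtered and not pooled. The counting tool, annotation and use of strand are not given in the sources used here. Unspliced mapping loses reads across exon junctions. Symbols came from RefSeq (GRCh38.p14), positions and exon lengths from GENCODE on GRCh37, the assembly of hg19.

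From these counts, 12559 of 23459 genes passed a minimum CPM of 1, exceeded in 2 or more libraries, and were scaled by TMM. With R 4.3.3 and edgeR 4.0.16, a quasi-likelihood test compared the 2 times over all 4 libraries. P-values were adjusted by Benjamini-Hochberg over all tested genes, and standard errors are the log2 fold change over the square root of F. Thresholds were an adjusted p of 0.05 and an absolute log2 fold change of 1. Alternatives were limma 3.58.1 (voom), DESeq2 1.42.0, other scalings and filters, a trend correction, a replicate block and leaving out each library. The tests were tried on simulated data. Values of some list genes are not reported here. All members are named, with the 10 largest rises and falls (8 of the latter passed) among list genes at an adjusted p below 0.05 and a mean normalized count of at least 50. The members and lists were chosen with earlier results of these data known. With totals between 8064450 and 10324697, 3 counts equal 0.291 to 0.372 CPM.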

Additional observations from a re-analysis of the deposited data

How the results depend on the processing

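The rises of TNFRSF10A, TNFRSF10B, TNFRSF10D and FAS kept their direction and an adjusted p below 0.05 in all 12 alternatives to the test across genes, with log2 fold changes of 1.17 to 1.46, 0.71 to 0.96, 0.82 to 0.99 and 0.54 to 0.98. Of these, 4 leave 1 library at one time, which is then assumed to vary like the 2 of the other time. CFLAR ran from 0.25 to 0.50 and lost its call without replicate 1 of 4 h, and TNFRSF1A ran from 0.12 to 0.26 and held its call in 6 of 12, with an adjusted p of 0.254 after the trend correction. TNFRSF12A and TNFRSF21 passed in none. The samples of both times share replicate numbers. With the replicate block, 691 genes passed both thresholds against 669 without it, and no call of a member changed. Deviations of same-numbered libraries had a correlation of 0.05 over all tested genes and of 0.11 over the 9396 genes with more reads, so 2 pairs do not settle a pairing. By adjusted p alone the block gave 5493 genes against 4867, with 18 pathway genes (15 without it) and 8 other receptors (6 without it). Between libraries of the same number, FAS was 1.70 and 1.69 times higher at 8 h. With glmTreat, 84 genes passed, none a member. DESeq2 called 2 of the 10 other receptor genes in place of 6, and the cause was not tested. With a CPM above 2 the ligand list kept 4 tested genes and 0 calls. TNFSF13B, the 1 ligand gene called before, had 5, 3, 30 and 14 reads and did not pass that filter. Past both thresholds, 182 genes were higher and 487 lower, a split of 263 and 338 after the trend correction and of 125 and 641 with library size alone.

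With each library left out in turn, 563 to 768 genes passed both thresholds and 3114 to 4828 the adjusted p alone (4867 with all libraries, and 3114 or 3141 without replicate 1 or 2 of 4 h). Members called numbered 4 to 6, pathway genes 11 to 17, other receptors 2 (without replicate 2 of 4 h) to 8 (without replicate 2 of 8 h), and ligands 1 to 2 (without replicate 1 of 8 h). The mean ratio of TNFRSF12A to TNFRSF10B per length, 3.43, ran from 2.99 to 3.76, and was 1.23 without lengths and 5.04 with one transcript's length, chosen after seeing the data. The decoy share of 18.2% ran from 18.2% (18.19 without replicate 1 of 8 h) to 18.3% (18.33), and was 13.6% without lengths and 15.1% with one transcript's length. Depth limits TNFRSF10C, TNFSF10 and TNFRSF21, as do 2 libraries per time.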

Other observations

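The 4 TRAIL receptor genes span 205 kilobases of chromosome 8 (22877646 to 23082615, GRCh37), and other tested genes lie near them. Within 250000 bases of the cluster, 7 other listed genes had a single annotated position and 5 of them were tested, a comparison chosen after the rises had been seen. TNFRSF10A-DT, which overlaps TNFRSF10A and is described above, is not among the 7. Of these 5, 0 were higher at 8 h, 1 was lower and 4 did not pass. Over all tested genes, 19.9% were higher and 18.8% lower, so with 5 genes these counts are not far from the background. LOXL2, the gene of a lysyl oxidase that crosslinks collagen, was the most abundant, with 6166 and 5857 reads at 4 h, then 5345 and 4368 at 8 h (log2 fold change 0.0067, standard error 0.07, edgeR adjusted p = 0.949). CHMP7, which encodes a subunit of the membrane-remodelling ESCRT-III complex and lies next to the cluster, had a log2 fold change of 0.10 (standard error 0.09, edgeR adjusted p = 0.405). RHOBTB2, on the other side, had −0.27 (standard error 0.12, edgeR adjusted p = 0.0897) and R3HCC1 −0.21 (standard error 0.13, edgeR adjusted p = 0.20). ENTPD4, which encodes a nucleotide-cleaving enzyme of the Golgi, fell with −0.30 (standard error 0.09, edgeR adjusted p = 0.00984).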
